A study of Mus musculus with 22 samples.

Results

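Fcgr1, Ms4a6c, Mpeg1, C1qb and Plac8 are genes of monocytes and macrophages that are often read as signs of myeloid cell activation. They were followed in mouse liver after an injection of interferon-gamma, with and without the feedback inhibitor SOCS1. The 5 genes were found by symbol among the 8251 genes that the array measures with a probe set of 1 symbol, and all 5 were measured. For each gene the probe set with the highest mean over the 22 arrays was used. The genes were selected on measured values of these arrays, their levels over the interferon-gamma times, so these levels and their differences between times and from PBS are descriptions. Where the text says which of the 5 passed a threshold in such a comparison, this too describes them and supports nothing.

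All mice lacked the gene for interferon-gamma. The IFNg-/- mice lacked it alone, and the SOCS1-/-IFNg-/- mice lacked SOCS1 as well. Recombinant interferon-gamma was injected into the peritoneum (4 µg in 100 µl) and livers were taken after 0.5, 1, 2, 4, 12, 16, 24 and 48 h. As controls served 1 liver without injection and livers taken 4 h and 12 h after 100 µl of phosphate-buffered saline (PBS). Each genotype therefore had 11 arrays, 3 of controls and 8 of interferon-gamma times, with 1 array per condition and no replicates. The sources used here give neither the ages and sexes of the mice nor whether a liver RNA came from 1 mouse or a pool. No mouse with an intact interferon-gamma gene was on these arrays. Values are log2 expression, so a difference of 1 is a doubling.

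Interferon-gamma binds its receptor on macrophages and most other cells and activates the kinases JAK1 and JAK2. In macrophages it raises antigen presentation, Fc receptor display and killing of engulfed microbes. SOCS1 is induced by the same signal and blocks the receptor's kinases. The liver holds a large resident macrophage population, the Kupffer cells, and draws in blood monocytes during inflammation. In RNA of whole liver, fewer cells of a type and less RNA per cell cannot be told apart.

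The upstream sequences of 3 of the genes are shown. Fcgr1 and Ms4a6c hold a match to an interferon motif, and Mpeg1 is shown as a gene without a match. The sequences are RefSeq's on GRCm38.p6, 5′ to 3′ on the gene's strand, and stop before the gene's annotated span. Capitals mark the motif match. Fcgr1 is shown for chr3:96293970-96294219 on the minus strand, Ms4a6c for chr19:11469118-11469352 on the plus strand and Mpeg1 for chr19:12460520-12460769 on the plus strand.
Fcgr1: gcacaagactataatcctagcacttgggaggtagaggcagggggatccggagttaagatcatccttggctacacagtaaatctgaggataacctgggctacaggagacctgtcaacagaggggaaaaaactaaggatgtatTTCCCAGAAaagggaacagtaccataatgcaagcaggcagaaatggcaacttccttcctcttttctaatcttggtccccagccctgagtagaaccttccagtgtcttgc
Ms4a6c: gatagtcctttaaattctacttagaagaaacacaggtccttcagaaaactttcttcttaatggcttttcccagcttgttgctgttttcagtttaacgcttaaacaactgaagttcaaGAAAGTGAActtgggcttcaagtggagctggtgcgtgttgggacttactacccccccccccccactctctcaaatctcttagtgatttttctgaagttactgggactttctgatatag
Mpeg1: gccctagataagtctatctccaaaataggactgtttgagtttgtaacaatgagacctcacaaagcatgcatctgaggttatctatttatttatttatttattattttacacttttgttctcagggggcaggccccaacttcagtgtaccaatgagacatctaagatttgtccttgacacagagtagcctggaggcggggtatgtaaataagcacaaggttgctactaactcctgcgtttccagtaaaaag
The following motifs were searched on both strands in the 250 bases before each start site, namely the gamma-activated site TTCNNNGAA, the interferon-stimulated response element core GAAANNGAA and the myeloid ETS site GAGGAAGT. All 5 genes were in the promoter table, with 6 start sites. The Fcgr1 match, TTCCCAGAA, lies at positions -109 to -101 from the start site. The Ms4a6c match, GAAAGTGAA, lies at -133 to -125. Among all 32851 promoters of the table, 7.02% held a match to the first motif, 7.13% to the second and 2.44% to the third. Mpeg1, C1qb and Plac8 held no match to any of these motifs, and none of the 5 genes held the third. A match is a stretch of letters, and binding was not measured. The part of these matches in the levels was not tested.

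The genes lie at chr3:96282909-96293969 (Fcgr1), chr19:11469353-11487182 (Ms4a6c), chr19:12460770-12465285 (Mpeg1), chr4:136880126-136886200 (C1qb) and chr5:100551589-100572253 (Plac8) on GRCm38.p6, and all 5 are protein-coding. Plac8 and Ms4a6c had 1 probe set each, and the other 3 genes had 2.

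At 4 h all 5 genes stood above the mean of the controls in both genotypes, and they then took different paths. As the mean of both genotypes minus the mean of the 6 control arrays, the 4 h difference was 1.21 ± 0.19 (standard error, SE) for Plac8, 1.06 ± 0.16 for Mpeg1, 0.56 ± 0.13 for C1qb, 0.46 ± 0.12 for Ms4a6c and 0.41 ± 0.10 for Fcgr1. Mpeg1 was further above the controls at 12 h, by 1.86 ± 0.16, and at 16 h, by 1.60 ± 0.16. Plac8 stood at 1.12 ± 0.19 at 12 h and 0.81 ± 0.19 at 16 h. C1qb had its largest difference at 24 h, 0.60 ± 0.13. By 48 h the differences ran from -0.18 for Plac8 to 0.24 for C1qb.

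The threshold was an adjusted p of 0.05 in limma, which fits a linear model to every gene. At 0.5 h 0 of the 5 genes passed, beside 0% of all genes (478 genes had an unadjusted p under 0.05, and array weights called 1). At 1 h 0 of the 5 passed, beside 0.158% of all genes, and the same count at 2 h stood beside 1.66%. All 5 were past it at 4 h, beside 5.03% of all genes. Plac8 and Mpeg1 were at 12 h (1.42%) and Mpeg1 at 16 h (0.448%). None passed at 24 h (0.17%) or 48 h (0.0121%). These counts come from the values in view when the genes were proposed, and nothing is read from them. At 4 h Plac8 and Mpeg1 passed in all 10 fits that left out another pair of arrays, whereas Fcgr1, Ms4a6c and C1qb did not pass without the untreated pair. Ms4a6c passed in 2 of the 10, without the 2 h or the 12 h pair, and did not pass with quantile normalization, while Fcgr1 did not pass without the PBS 12 h pair. Mpeg1 alone passed with array weights or without the genotype term. Other settings also moved calls at other times. Mpeg1 passed at 2 h with array weights or without the PBS 12 h or the 4 h pair. Plac8 did not pass at 12 h without the genotype term, and it passed at 16 h without the PBS 12 h pair. Ms4a6c passed at 12 h once the 4 h pair was left out. At 24 h C1qb passed with array weights, with probe sets averaged and without the 4 h pair, and Mpeg1 with array weights and without the 4 h pair.

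**Figure D1:**
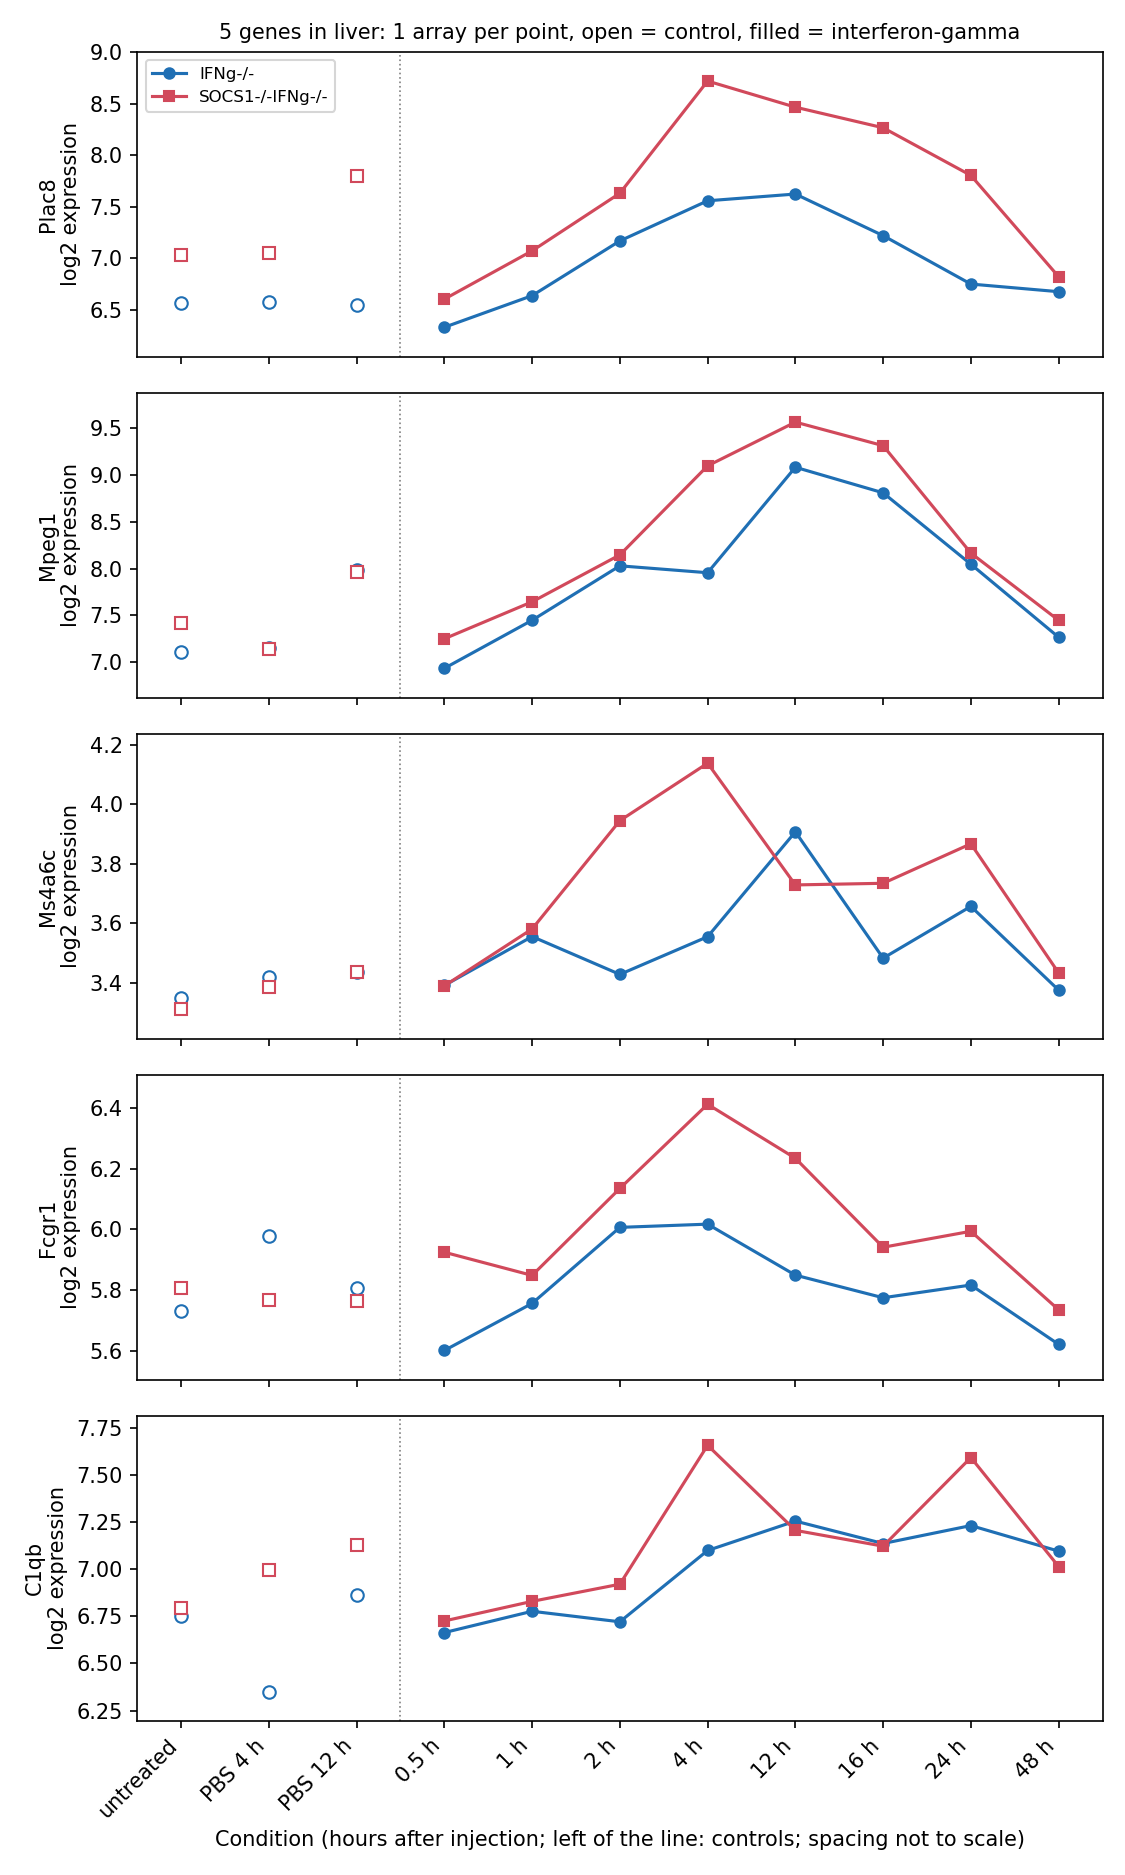
Log2 expression (y axis) of the 5 genes in each of the 11 conditions (x axis, hours after injection), 1 array per point, in IFNg-/- (circles) and SOCS1-/-IFNg-/- (squares) livers; open symbols are controls and filled symbols are interferon-gamma times. Mpeg1 peaks at 12 h in both genotypes (9.08 and 9.56), and Plac8 is higher in the SOCS1-/-IFNg-/- liver of every pair.

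Fcgr1 encodes the high-affinity receptor for immunoglobulin G, CD64, which lets macrophages bind antibody-coated particles. Its log2 level in IFNg-/- livers was 5.73 untreated, 5.98 at PBS 4 h and 5.81 at PBS 12 h, then 5.60, 5.76, 6.01, 6.02, 5.85, 5.77, 5.82 and 5.62 from 0.5 to 48 h. Livers without SOCS1 read 5.81, 5.77 and 5.77 in the same controls, then 5.92, 5.85, 6.13, 6.41, 6.23, 5.94, 5.99 and 5.74. The IFNg-/- interferon-gamma arrays overlapped their controls, with the 2 h and 4 h arrays alone above all 3. In SOCS1-/-IFNg-/- livers 7 of the 8 times lay above all 3 controls, and the 48 h array lay below them. Relative to the mean of the controls of the same genotype, the 4 h level was 1.13-fold in IFNg-/- and 1.55-fold in SOCS1-/-IFNg-/- livers. The other Fcgr1 probe set, of a kind that transcripts can share, had the same peak, with 6.07 in IFNg-/- and 6.50 in SOCS1-/-IFNg-/- livers at 4 h against controls between 5.60 and 5.78.

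Other genes of the Fc receptor family and its signalling adaptors were a list of 11 genes, of which 7 were measured. In limma 0 of these 7 passed at any of the 8 times (1 had an unadjusted p under 0.05, and array weights also called 0), where 6.52% of all genes passed at 1 or more times. The median difference of the 7 at 4 h was 0.02, against -0.03 over all genes. Fcer1g, the signalling chain that carries Fcgr1 to the cell surface, was singled out for its role and not by the naming rule. It lay between 3.89 and 4.45 on all 22 arrays, at the 15.9th percentile of all genes. At 4 h it differed from the controls by 0.07 ± 0.13 (adjusted p = 0.851). Mean levels in the list ran from Fcgrt at the 0.909th percentile to Syk at the 85.5th, so low signal limits some of these genes. The largest differences of the list, neither of which passed, were 0.28 ± 0.09 for the adaptor Tyrobp at 48 h (adjusted p = 0.516) and 0.25 ± 0.18 for the inhibitory receptor Fcgr2b at 16 h (adjusted p = 0.845).

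Ms4a6c belongs to the membrane-spanning 4A family of surface proteins and is found on myeloid cells. It was measured by a probe set marked as covering a sequence family, and its mean level of 3.57 ranked at the 14.6th percentile of all probe sets. It read, in IFNg-/- livers, 3.35, 3.42 and 3.43 in the controls and 3.39, 3.55, 3.43, 3.55, 3.91, 3.48, 3.66 and 3.37 from 0.5 to 48 h. The SOCS1-/-IFNg-/- livers read 3.31, 3.38 and 3.44 in the controls and 3.39, 3.58, 3.94, 4.14, 3.73, 3.73, 3.87 and 3.43 at the times. The 2 h and 4 h arrays of SOCS1-/-IFNg-/- livers stood apart from the IFNg-/- arrays of those hours, while at 12 h the IFNg-/- array was the higher. Against its own controls the 4 h level was 1.11-fold in IFNg-/- and 1.7-fold in SOCS1-/-IFNg-/- livers. Of 14 other family members on a list 5 were measured, and Ms4a6b alone passed, at 12 h, by 0.36 ± 0.08 (limma adjusted p = 0.038). That call was lost in 6 of 10 fits leaving out a pair (adjusted p 0.0539 to 0.105) and without the genotype term (0.0866). Low signal limits it as well, since Ms4a6b lay between 2.24 and 2.90, at the 0.751th percentile of all genes.

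Mpeg1 encodes perforin-2, a pore-forming protein that macrophages turn on bacteria they have engulfed. The IFNg-/- livers read 7.11 untreated, 7.15 at PBS 4 h and 7.98 at PBS 12 h, then 6.94, 7.45, 8.03, 7.96, 9.08, 8.81, 8.05 and 7.27 from 0.5 to 48 h. The SOCS1-/-IFNg-/- livers read 7.42, 7.14 and 7.96 in the controls, then 7.25, 7.65, 8.15, 9.09, 9.56, 9.31, 8.16 and 7.45. The 12 h and 16 h arrays were the highest in IFNg-/- livers, and the 4, 12 and 16 h arrays were the highest in SOCS1-/-IFNg-/- livers. Mpeg1 at 12 h was 3.17-fold the mean control of IFNg-/- livers and 4.15-fold that of SOCS1-/-IFNg-/- livers. Both PBS 12 h arrays lay well above the other controls of their genotype, by 0.87 and 0.54 over the untreated array. Without the PBS 12 h pair the 12 h difference from the controls was 2.11 in place of 1.86, and the 2 h difference was 0.88 in place of 0.63.

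The other Mpeg1 probe set disagreed. It read between 2.01 and 2.43 on all 22 arrays, at the 0.306th percentile of all probe sets, and its highest value was an untreated liver. Its suffix marks a probe set for which the design rules on probe choice were relaxed. With both probe sets averaged, the 12 h difference was 0.91 and the 4 h difference 0.53, and Mpeg1 still passed at 4, 12 and 16 h against the 6 controls.

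**Figure D2:**
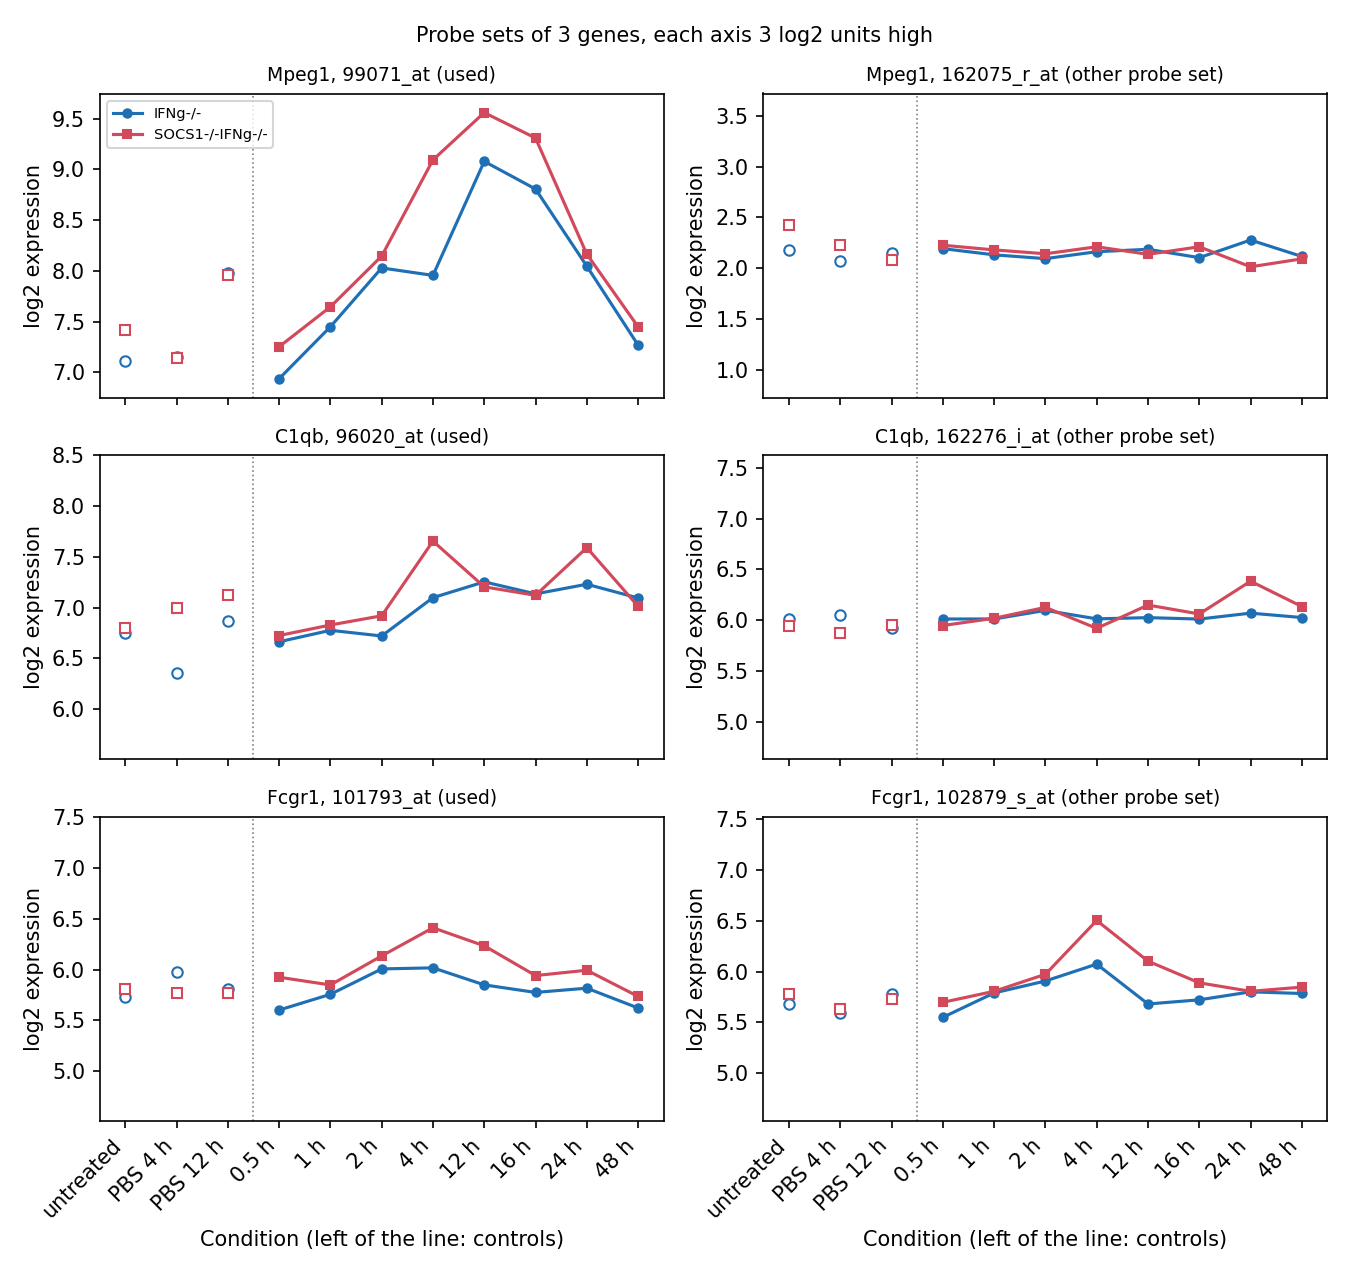
Log2 expression (y axis, each panel 3 units high) by condition (x axis) for the used probe set (left) and the other probe set (right) of Mpeg1, C1qb and Fcgr1, 1 array per point, circles IFNg-/- and squares SOCS1-/-IFNg-/-, open symbols controls. The Fcgr1 probe sets share a peak at 4 h, the second Mpeg1 probe set stays between 2.01 and 2.43, and the second C1qb probe set between 5.87 and 6.38.

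C1qb encodes the B chain of C1q, the antibody-binding starter of the classical complement pathway, which macrophages make. The IFNg-/- livers read 6.75, 6.35 and 6.86 in the controls and 6.66, 6.78, 6.72, 7.10, 7.25, 7.14, 7.23 and 7.09 from 0.5 to 48 h. The SOCS1-/-IFNg-/- livers read 6.80, 7.0 and 7.13 in the controls and 6.72, 6.83, 6.92, 7.66, 7.20, 7.12, 7.59 and 7.01 at the times. All 5 IFNg-/- arrays from 4 h on were above the 3 controls, while in SOCS1-/-IFNg-/- livers the 4, 12 and 24 h arrays were. Against the controls of the same genotype C1qb was 1.36-fold and 1.60-fold at 4 h, and 1.49-fold and 1.53-fold at 24 h, in IFNg-/- and SOCS1-/-IFNg-/- livers. The second C1qb probe set, built from fewer probes, gave 6.01 and 5.92 at 4 h and 6.07 and 6.38 at 24 h, against 5.87 to 6.06 in the controls, so it showed no 4 h peak.

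C1q is built from A, B and C chains, and all 3 genes were measured. C1qa lay between 7.44 and 7.95 in the controls and reached 7.81 and 8.12 at 4 h and 7.88 and 8.26 at 24 h in IFNg-/- and SOCS1-/-IFNg-/- livers. C1qc lay between 8.61 and 9.24 in the controls and reached 8.90 and 9.37 at 4 h and 8.92 and 9.35 at 24 h. At 12 h C1qa read 8.04 and 7.70, and C1qc 9.17 and 8.73. In SOCS1-/-IFNg-/- livers the 4 h and 24 h arrays were the highest for all 3 chains, and at 12 h C1qa and C1qc lay below the PBS 4 h and 12 h arrays. In IFNg-/- livers the 12 h array was the highest for all 3. At 24 h the differences from the controls were 0.32 ± 0.12 for C1qa (limma adjusted p = 0.368) and 0.30 ± 0.14 for C1qc (adjusted p = 0.514). Neither passed. Both were smaller than the 0.60 ± 0.13 of C1qb on its used probe set. C1qb was selected on such levels, so nothing is read from this gap. The second C1qb probe set read 6.07 and 6.38 at 24 h, against 5.87 to 6.06 in the controls. The 24 h value of C1qc was picked after it was seen, and by the naming rule its value is -0.30 ± 0.14 at 0.5 h (adjusted p = 0.859). Of the 8 measured genes of the C1q and complement receptor list 0 passed at any time in limma (3 had an unadjusted p under 0.05, and array weights called 0).

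Plac8 encodes a small cysteine-rich protein, also known as onzin, that is abundant in myeloid cells. In IFNg-/- livers it read 6.57, 6.57 and 6.55 in the controls and 6.33, 6.64, 7.17, 7.56, 7.62, 7.22, 6.75 and 6.67 from 0.5 to 48 h. In SOCS1-/-IFNg-/- livers it read 7.03, 7.05 and 7.80 in the controls and 6.60, 7.07, 7.63, 8.72, 8.47, 8.27, 7.80 and 6.82 at the times. The IFNg-/- controls lay within 0.02 of each other, and 7 of the 8 times were above all of them, the 0.5 h array being below. In SOCS1-/-IFNg-/- livers the PBS 12 h array stood 0.77 above the untreated one, and 4 of the 8 times were above all 3 controls, or 6 of 8 above the untreated and PBS 4 h arrays. Plac8 at 4 h was 1.99-fold the mean control of IFNg-/- livers and 2.69-fold that of SOCS1-/-IFNg-/- livers.

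The order of the 11 conditions, as the mean of both genotypes, put 4 h first for Plac8, Fcgr1 and Ms4a6c, 12 h first for Mpeg1 and 24 h first for C1qb. For Plac8 the 4 h and 12 h levels (8.14 and 8.04) differed by less than the standard error of a difference between 2 conditions, 0.23, and 16 h followed at 7.74. For Mpeg1 12 h (9.32), 16 h (9.06) and 4 h (8.52) were each apart from the next by more than the SE of 0.20, while 24 h (8.11) and 2 h (8.09) were not. For Fcgr1 4 h (6.21) was apart from 2 h (6.07) by more than the SE of 0.12. For Ms4a6c no neighbouring conditions were apart by more than the SE of 0.15. For C1qb the first 5 conditions, 24, 4, 12, 16 and 48 h, followed each other within the SE of 0.16. The 0.5 h livers were lowest for Plac8 (6.47) and Mpeg1 (7.09).

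PBS livers of the same hour exist at 4 h and 12 h alone, so at the other 6 times interferon-gamma and the injection cannot be told apart. Against PBS at 4 h, the difference was 1.38 ± 0.20 for Mpeg1, 1.33 ± 0.23 for Plac8, 0.70 ± 0.16 for C1qb, 0.44 ± 0.15 for Ms4a6c and 0.34 ± 0.12 for Fcgr1. The first 3 of these were past the threshold, beside 1.36% of all genes, from which nothing is read since the genes were selected on these arrays. C1qb did not pass without the untreated, PBS 12 h, 0.5, 1, 2 or 24 h pair, nor with probe sets averaged. With array weights or no genotype term Mpeg1 alone passed. In IFNg-/- livers Fcgr1 differed from PBS 4 h by 0.04 on the used probe set and by 0.48 on the other, and these read 5.98 and 5.60 in that PBS liver. Against PBS at 12 h, Mpeg1 differed by 1.35 ± 0.20, Plac8 by 0.87 ± 0.23, Ms4a6c by 0.38 ± 0.15, Fcgr1 by 0.26 ± 0.12 and C1qb by 0.23 ± 0.16. Mpeg1 alone passed there, beside 0.109% of all genes, and it did not pass with probe sets averaged or without the genotype term.

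PBS livers set against the untreated livers differed by 0.29 ± 0.17 for Mpeg1, 0.20 ± 0.20 for Plac8, 0.09 ± 0.13 for Ms4a6c, and 0.06 ± 0.11 for Fcgr1 and 0.06 ± 0.13 for C1qb. None of the 5 passed in limma, beside 0.0242% of all genes (966 genes had an unadjusted p under 0.05, and array weights called 51). The Mpeg1 value rested on the PBS 12 h pair: it was -0.12 without them and 0.71 without the PBS 4 h pair. The PBS 12 h livers also had higher levels of 16 direct interferon-gamma targets, whose mean was 6.86 in IFNg-/- and 7.37 in SOCS1-/-IFNg-/- livers against 5.94 to 6.24 in the other 4 controls. The part of that signal in the Mpeg1 and Plac8 levels of these controls was not tested.

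Loss of SOCS1 was compared within the 11 pairs of livers that share a condition, as SOCS1-/-IFNg-/- minus IFNg-/-. It is not recorded whether these differences were in view when the genes were proposed, so they are no independent support. Plac8 was higher without SOCS1 in 11 of 11 pairs, by 0.46 untreated, 0.48 and 1.25 in the PBS pairs of 4 h and 12 h, and 0.27, 0.44, 0.46, 1.16, 0.84, 1.05, 1.06 and 0.15 from 0.5 to 48 h. Every pair thus had the same sign, with the widest gaps at PBS 12 h, 4 h, 16 h and 24 h and the narrowest at 48 h. The mean over the phases, which were controls, 0.5 to 4 h (early) and 12 to 48 h (late), was 0.70 ± 0.10, a 1.62-fold level, and it passed in limma (adjusted p = 0.0137), beside 0.218% of all genes. The call was lost with a trended, robust variance prior (adjusted p = 0.793), without the PBS 12 h pair (0.61, adjusted p = 0.0558) and without the 24 h pair (0.66, adjusted p = 0.0509). Over the alternatives run, the adjusted p ranged from 0.00385 with array weights to 0.793.

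The other 4 genes did not pass in that comparison. Mpeg1 was higher without SOCS1 in 9 of 11 pairs, with a mean of 0.28 ± 0.08 (limma adjusted p = 0.277) and its widest gap, 1.14, at 4 h. Fcgr1 was higher in 9 of 11 pairs, by 0.13 ± 0.04 (adjusted p = 0.371), and C1qb in 8 of 11, by 0.20 ± 0.06 (adjusted p = 0.354). Ms4a6c was higher in 7 of 11, by 0.11 ± 0.06 (adjusted p = 0.681). The 4 h pair held the widest gap of Mpeg1, Ms4a6c (0.58) and Fcgr1 (0.39).

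In the 3 control pairs alone the difference was 0.73 ± 0.20 for Plac8 (limma adjusted p = 0.717), 0.32 ± 0.12 for C1qb and 0.09 ± 0.16 for Mpeg1, and it was -0.03 ± 0.12 for Ms4a6c and -0.06 ± 0.08 for Fcgr1. None passed, beside 0.0121% of all genes, although Plac8 passed with array weights (0.99, adjusted p = 0.0213), which called 27 genes in this comparison. Without the PBS 12 h pair the Plac8 control difference was 0.47. Whether the genotype gap was another after interferon-gamma was tested by subtracting the control gap from the early or the late gap. Early minus controls it was 0.35 ± 0.21 for Mpeg1, 0.31 ± 0.15 for Ms4a6c, 0.29 ± 0.11 for Fcgr1, -0.10 ± 0.16 for C1qb and -0.15 ± 0.26 for Plac8 (each adjusted p = 0.998). Late minus controls it was 0.27 ± 0.11 for Fcgr1 (adjusted p = 0.366), 0.23 ± 0.21 for Mpeg1, 0.11 ± 0.15 for Ms4a6c, 0.04 ± 0.26 for Plac8 and -0.26 ± 0.16 for C1qb. In limma 0% of all genes passed in the early test (287 had an unadjusted p under 0.05) and 0% in the late one (938), where array weights called 0 and 62. Each test averages pairs of several hours, so a gap at a single hour is diluted. For Mpeg1 the early gaps were 0.31, 0.20 and 0.12 at 0.5, 1 and 2 h, and 1.14 at 4 h. Recovery in the early test was not simulated. The tests therefore cannot decide whether the response differed by genotype at a single hour.

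**Figure D3:**
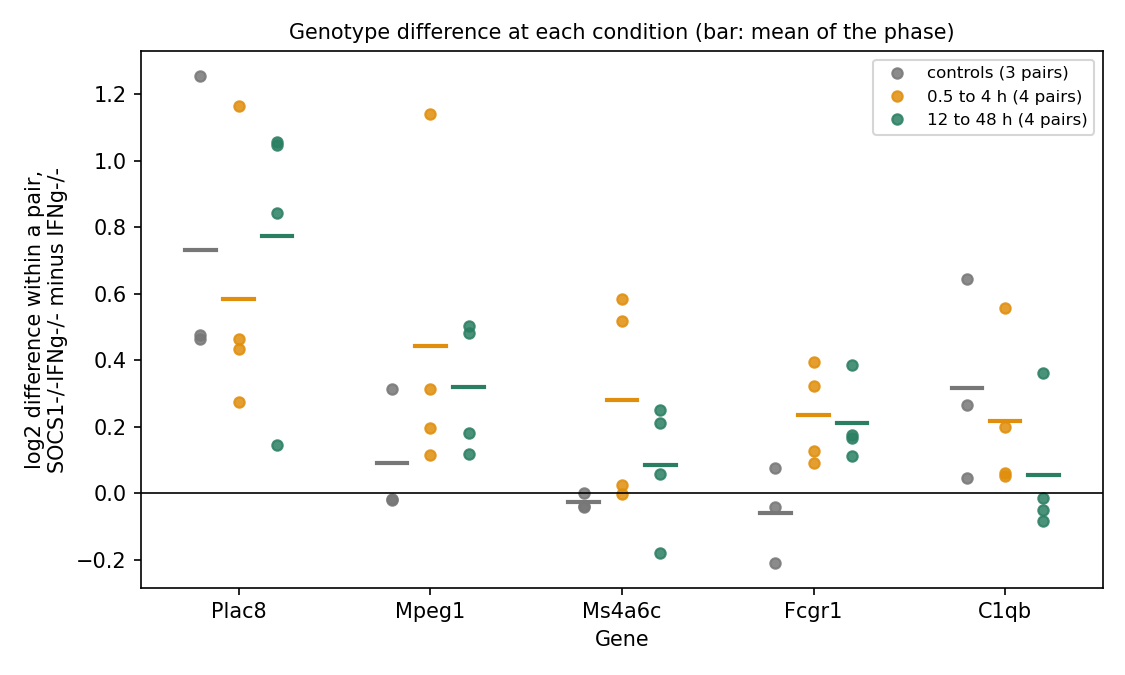
Difference in log2 expression between the SOCS1-/-IFNg-/- and the IFNg-/- liver of a condition (y axis) for each gene (x axis), 1 point per pair, split into the 3 control pairs, the 4 pairs from 0.5 to 4 h and the 4 pairs from 12 to 48 h, with bars at the means. All 11 Plac8 points lie above 0, from 0.15 to 1.25, while the other genes have points on both sides of 0.

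Wider lists of macrophage genes were set beside the 5 genes, and were chosen with earlier results of these arrays known. Of the 22 measured genes of macrophage activation, 9 passed at 1 or more times in limma (6.52% of all genes did), all upward. They were 1, 3, 6, 3 and 1 genes at 1, 2, 4, 12 and 24 h. The lists overlap. The 24 h gene, Aif1, is also on the Kupffer cell list, and its call was lost in 6 of 10 fits leaving out a pair. Irf8 is also on the list of direct interferon-gamma targets. The transcription factor Irf8 rose by 2.34 ± 0.35 at 2 h (adjusted p = 0.0019), and the adhesion molecule Icam1 by 2.17 ± 0.23 at 4 h (0.000118). Il1rn, the antagonist of the interleukin-1 receptor, rose by 1.36 ± 0.18 at 4 h (adjusted p = 0.000556), and the cytokine Il1b by 1.21 ± 0.14 at 1 h (0.00207). The list's median at 4 h was 0.14, against 0.56 for the 5 genes and -0.03 over all genes. Since the 5 genes were selected on such levels, nothing is read from their higher median. Of the 16 measured phagocyte oxidase and lysosome genes, the lysosomal protease Ctss alone passed, at 12 h, by 0.64 ± 0.12 (limma adjusted p = 0.0112, but 0.0983 without the untreated pair and 0.151 without the genotype term). Of the 16 measured direct interferon-gamma targets 14 passed at 1 or more times, among them the chemokine Cxcl9 with 5.68 ± 0.49 at 12 h (adjusted p = 2.31e-05).

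**Figure D4:**
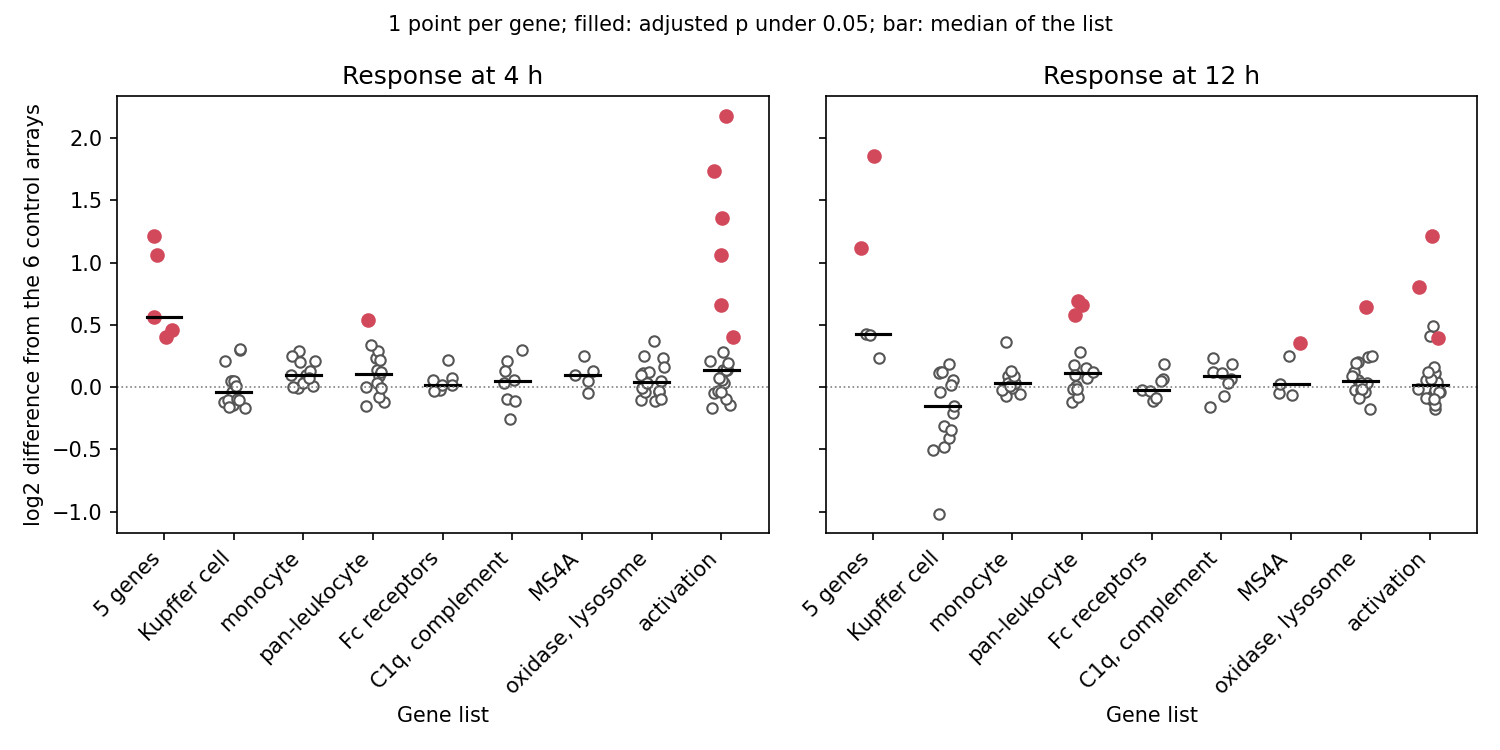
Log2 difference from the mean of the 6 control arrays (y axis) at 4 h (left) and 12 h (right), mean of both genotypes, 1 point per gene in each list (x axis), filled where the limma adjusted p is under 0.05, with bars at list medians. The 5 genes have medians of 0.56 and 0.43, the Kupffer cell markers of -0.04 and -0.15. The 5 genes were selected on their levels on these arrays, so nothing is read from this gap.

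Marker lists of the cells that carry these genes were set beside them. Of the 15 measured Kupffer cell and macrophage markers, 0 passed at 4, 12 or 16 h in limma and Aif1, a macrophage calcium-binding protein, passed at 24 h by 0.38 ± 0.07 (adjusted p = 0.0471). That call was lost in 6 of 10 fits leaving out a pair (adjusted p 0.0523 to 0.217), and with quantile normalization, a trended prior or no genotype term (0.0575 to 0.0682). At an unadjusted p under 0.05, 13 of the 15 differed at 1 or more times, and array weights called 2. The mean of the 15 ran from 6.37 to 6.57 over the 6 controls and from 6.17 to 6.70 over the 16 interferon-gamma arrays, with the lowest values in SOCS1-/-IFNg-/- livers at 12 h (6.17) and 16 h (6.23).

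At 12 h 6 of the 15 differences were above 0 and the median was -0.15, and at 16 h 7 of the 15 were, with a median of -0.14. The list ran from -1.02 to 0.19 at 12 h and from -1.04 to 0.24 at 16 h. Cd5l and Clec4f were picked from the list after their values were seen, for their low levels at these hours, and do not stand for the list. Cd5l, a protein secreted by tissue macrophages, read 5.69 at 12 h and 5.29 at 16 h in SOCS1-/-IFNg-/- livers, against 6.85 to 7.44 in the controls of that genotype. In IFNg-/- livers it read 6.46 and 6.81 at those hours, against 6.91 to 7.31. Clec4f, a Kupffer cell lectin, read 7.31 and 7.08 in SOCS1-/-IFNg-/- livers against 7.79 to 8.39 in the controls. In IFNg-/- livers it read 7.91 and 7.79 against 7.84 to 8.31, so that the IFNg-/- 12 h array lay within its controls. The PBS 12 h liver was the lowest Clec4f control in both genotypes (7.79 and 7.84). For Cd5l it was the lowest control in SOCS1-/-IFNg-/- livers (6.85) and the highest in IFNg-/- livers (7.31). At 4 h, where Mpeg1 was high in SOCS1-/-IFNg-/- livers, Cd5l (6.97) and Clec4f (8.24) lay within the controls of that genotype. Over both genotypes the differences were -1.02 ± 0.29 at 12 h and -1.04 ± 0.29 at 16 h for Cd5l (limma adjusted p = 0.116 and 0.205), and -0.51 ± 0.18 and -0.68 ± 0.18 for Clec4f (adjusted p = 0.217 and 0.152). Neither gene passed at either hour, except Cd5l at 12 h without the 16 h pair (adjusted p = 0.0171). At 48 h Cd5l read 7.77 in both genotypes, above all 6 controls, with a difference of 0.68 ± 0.29 (adjusted p = 0.683).

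Of the 12 measured markers of recruited monocytes 0 passed at any time in limma (5 had an unadjusted p under 0.05, and array weights called 0). Their mean ran from 5.03 to 5.11 over the controls and from 4.96 to 5.22 over the interferon-gamma arrays. The median difference at 4 h was 0.10, and 11 of the 12 were above 0, against a median of -0.03 over all genes. Ccr2, the chemokine receptor that brings monocytes out of the bone marrow, lay between 3.15 and 3.76, at the 7.75th percentile of all genes, and differed by 0.36 ± 0.10 at 12 h (adjusted p = 0.0836, and 0.0391 without the PBS 4 h pair). Lyz2 differed by -0.61 ± 0.17 at 24 h (adjusted p = 0.199).

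Of the 14 measured pan-leukocyte genes 4 passed at 1 or more times, beside 6.52% of all genes. At 12 h the granule proteoglycan Srgn rose by 0.69 ± 0.10 (limma adjusted p = 0.00201), the surface glycoprotein Cd52 by 0.66 ± 0.12 (0.0108) and the actin-binding peptide Tmsb4x by 0.58 ± 0.09 (0.00396), and Cd53 rose by 0.54 ± 0.14 at 4 h (0.0409). Without the untreated pair Cd52, Tmsb4x and Cd53 no longer passed (adjusted p = 0.0743, 0.0674 and 0.0947), nor did they without the genotype term (0.131, 0.0627 and 0.116). Without the PBS 4 h pair Cd52 and Cd53 did not pass (0.069 and 0.103). Cd53 was lost in 5 of 10 fits leaving out a pair and with array weights (adjusted p 0.0511 to 0.219), whereas Srgn passed in all 10 fits leaving out a pair. The mean of the 14 was 6.20 to 6.40 in the controls and reached 6.53 in SOCS1-/-IFNg-/- livers at 12 h and 24 h. The part of these leukocyte genes in the levels of the 5 genes was not tested.

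Among markers of other cells in the liver, 0 of 13 neutrophil, 0 of 12 T cell, 0 of 9 NK cell, 0 of 10 B and plasma cell, 0 of 8 dendritic cell and 0 of 9 endothelial genes passed at any time in limma, beside 6.52% of all genes (5, 1, 3, 4, 3 and 3 of them had an unadjusted p under 0.05, and array weights called 1 endothelial gene). The neutrophil gene S100a8 differed by 0.84 ± 0.27 at 4 h (adjusted p = 0.089, and 0.0158 without the 12 h pair), and S100a9 by 0.55 ± 0.21 at 2 h (0.286). S100a9 also passed without the 12 h pair. Sdc1, of the B and plasma cell list, differed by -0.53 ± 0.15 at 4 h (limma adjusted p = 0.0508). It passed with quantile normalization, a filter on low values, and without the PBS 4 h or the 12 h pair. Endothelial Eng, with -0.30 ± 0.08 at 2 h (adjusted p = 0.0773), passed with array weights and without the 4 h pair. Hepatocyte genes marked the tissue, with Alb between 13.1 and 13.4 on all 22 arrays, at the 99.9th percentile, and the mean of 11 such genes between 10.9 and 11.2. Of those 11 genes 2 passed, the tyrosine aminotransferase Tat, which fell by 1.04 at 4 h, and the fibrinogen chain Fgb, which rose by 0.50 at 4 h but did not pass without the untreated pair (adjusted p = 0.132) or with array weights (0.178). Of 10 stellate cell and fibroblast genes 1 passed, Reln, which fell by 0.74 at 16 h. This call was lost without the untreated pair, the 1 h pair or the genotype term (adjusted p 0.0531 to 0.198). Of 17 cell cycle genes 1 passed, Tk1, which fell by 0.34 at 4 h. This call was lost without the untreated or the PBS 12 h pair, with array weights and with probe sets averaged (adjusted p 0.0603 to 0.29).

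Over the 22 arrays the 5 genes correlated with each other from r = 0.400 (Fcgr1 and C1qb) to r = 0.841 (Plac8 and Mpeg1). In IFNg-/- livers alone (11 arrays) Fcgr1 and C1qb had r = -0.118, and in SOCS1-/-IFNg-/- livers r = 0.589. The genes most like Plac8 were Lgals3bp (Pearson r = 0.917, Spearman rho = 0.862), Tmsb10 (0.914 and 0.898) and Flot1 (0.911 and 0.884). Those most like Mpeg1 were Psmb10 (0.943 and 0.868), AW112010 (0.942 and 0.914) and Psmb8 (0.941 and 0.940), and those most like C1qb were Ctss (0.891 and 0.916), C1qa (0.873 and 0.822) and Psme1 (0.818 and 0.867). Fcgr1 was most like Wars (0.884 and 0.813), D17H6S56E-5 (0.879 and 0.698) and Hspb8 (0.866 and 0.798). Ms4a6c was most like C2 (0.858 and 0.809), Irf7 (0.845 and 0.860) and Serpina3n (0.822 and 0.835). These values share the same livers and time course, and are given as a description.

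The arrays had medians between 5.64 and 5.71, and no 2 arrays held identical values. Against the other arrays, the median correlation was lowest for the 4 h liver without SOCS1 (0.972), and this array holds the highest Fcgr1, Ms4a6c, C1qb and Plac8 levels. The difference between the 3′ and 5′ control probe sets for Actb, which grows as RNA degrades, was lowest on that array, 0.33, and 0.47 to 1.56 on the other 21. The same difference for Gapdh was 1.16 on the SOCS1-/-IFNg-/- 12 h array, which holds the highest Mpeg1 level and low Cd5l and Clec4f levels, and 0.37 to 0.85 on the other 21. The part of RNA quality in these levels was not tested.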

How the data were processed

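Liver RNA of 22 samples was measured on Affymetrix 3′ expression arrays, extracted with Trizol and cleaned on RNeasy columns per the labels' protocols. The authors deposited 1 log2 expression value per probe set, made with the affy package per the submitters' processing notes. How backgrounds were corrected, arrays normalized and probes summarised is not given in the sources used here. That values are log2 was judged from their span, 1.73 to 13.5, and 0 were missing.

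Of 12488 probe sets, 66 controls were left out, 10833 carried 1 gene symbol, 396 several and 1193 none. The probe set with the highest mean stood for a gene, which left 8251 genes, 2073 of them with more than 1 probe set, and no filter on low values was applied. Probe set suffixes were read by Affymetrix convention.

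Models were fitted with limma 3.58.1 (lmFit, then eBayes; R 4.3.3). P-values were adjusted over all genes by Benjamini and Hochberg, with 0.05 as the threshold. Responses came from a model of condition and genotype (10 residual degrees of freedom), in which the 2 genotypes stood in for replicates. Genotype differences came from the 11 within-pair differences by phase (8 residual degrees of freedom). Since nothing says that arrays came from separate animals, p-values cover the spread between these samples, which may be technical. In the response model this spread also holds any difference between the genotypes in their response. For Mpeg1, 4 h minus PBS 4 h was 0.80 in IFNg-/- and 1.96 in SOCS1-/-IFNg-/- livers. The number of arrays limits the precision.

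The 5 genes and all lists were chosen with earlier results of these data known, so the genes' responses are described without p-values, and whether they passed the threshold supports nothing. Of 249 list genes, 203 were measured. Named are the 5 genes, up to 4 genes per list with the largest change among those past the threshold (up to 2 where none passed), and the 3 most correlated genes. Alternatives were quantile normalization, array weights, a trended and robust prior, a filter on low values, the mean of a gene's probe sets, no genotype term, and leaving out each pair of arrays. On simulated data for 8251 genes, with 67 genes changed at each size, 95.5% of those changed by a log2 of 1 and 82.1% of those changed by 0.5 were recovered in the 12 h response. The shares were 89.6% and 59.7% against PBS at 4 h, 98.5% and 94% in the genotype difference over all pairs, and 89.6% and 47.8% in the late minus control difference. Genes called falsely numbered 9, 6, 6 and 4 in the same order. The simulated noise was normal and independent between genes and arrays, and a simulated response had the same size in both genotypes. The shares may therefore not hold for the real arrays.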

Additional observations from a re-analysis of the deposited data

How the results depend on the processing

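With array weights the counts of genes called became 1, 43, 420 and 84 at 0.5, 1, 2 and 4 h, 23 and 19 against PBS at 4 and 12 h, 51 for PBS against untreated, and 71, 27 and 62 for the genotype difference over all pairs, in controls and late minus controls. A trended, robust prior gave 6 at 1 h, 8 at 24 h, and 0 for the genotype difference over all pairs and in controls. A filter on low values gave 8 at 1 h and 11 for the genotype difference over all pairs. Without the genotype term the counts were 53, 20 and 7 at 12, 16 and 24 h, 49 and 0 against PBS at 4 and 12 h, and 1 for PBS against untreated. Leaving out 1 pair of arrays at a time gave 0 to 1 genes at 0.5 h, then 7 to 47 (1 h), 86 to 287 (2 h), 228 to 459 (4 h), 54 to 187 (12 h), 15 to 60 (16 h), 7 to 22 (24 h) and 0 to 1 (48 h). It gave 77 to 102 and 7 to 32 against PBS at 4 and 12 h, 1 to 14 for PBS against untreated, and 7 to 31, 0 to 3 and 0 to 2 for the genotype difference over all pairs, in controls and late minus controls. The lowest counts at 1, 2, 4, 12 and 16 h came without the untreated pair, and the highest at 1, 2, 12 and 16 h without the 4 h pair. For Fcgr1, Ms4a6c, Mpeg1, C1qb, Plac8 and the named list genes, no called fit result changed sign under these settings. The signs of the other genes counted here were not compared. Some member levels did change sign. Levels on the other Mpeg1 probe set did so in SOCS1-/-IFNg-/- livers. Minus the controls they were -0.04 at 4 h and -0.11 at 12 h, in place of 1.59 and 2.05. In IFNg-/- livers they were 0.03 and 0.05, in place of 0.54 and 1.66. The other C1qb probe set gave -0.001 at 4 h in SOCS1-/-IFNg-/- livers, in place of 0.68. Fcgr1 at 12 h in IFNg-/- livers was 0.01 on the used probe set. It was -0.003 on the other Fcgr1 probe set, and -0.005 on the used one without the PBS 12 h array. The causes were not tested. The genotype difference over all pairs was fitted within pairs. Low signal limits Ms4a6c, which a filter on low values removed.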
